A study of Mus musculus with 3 samples.

Results

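The cytosolic ribosomal protein genes are the 84 genes on the array whose names mark a protein of the large subunit (Rpl and Rplp names, 51 genes) or of the small subunit (Rps names and Rpsa, 33 genes), out of 37008 gene names in all. They were chosen by name from the non-control probes of the scanner files, without pseudogene suffixes and without the Rps6k kinases, and each gene was read from its brightest probe without an outlier flag. The RNA came from mpkDCT, a mouse cell line of the kidney's distal convoluted tubule. Its Cyp27b1, the gene of the enzyme that turns calcidiol into calcitriol, had been knocked out with CRISPR-Cas9. All 3 groups carry that knockout: calcitriol (1,25(OH)2D3, 1e-07 M), calcidiol (25(OH)D3, 1e-07 M) and vehicle, each for 24 h and each measured on 1 array. The medium lacked phenol red and held 2% of a serum stripped with charcoal. The sources used here do not say whether the line is 1 clone, and sample titles carry a tag, siCT, that they do not explain. One description writes the calcidiol agent as 25(OH)2D3, and the treatment label, 25(OH)D3, was followed.

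Since each group is 1 array, sizes are given and no p-value. The calcitriol-degrading enzyme gene Cyp24a1 had signals of 5443 with calcitriol, 288 with calcidiol and 2.68 with vehicle, the last of these not well above background. Cyp27b1 signals stayed near background on all 3 arrays, vehicle included, and so check nothing. The line's labelled identity was not borne out by its markers: of 7 genes that mark the distal convoluted tubule, among them Slc12a3, none was well above background on all 3 arrays, and of 5 general epithelial markers only Tjp1 was. Of 4 fibroblast, 3 leukocyte and 3 endothelial markers, 1 (Col1a1), 2 (Ptprc and Cd68) and 1 (Kdr) were well above background on all 3 arrays, with signals of 66.4 to 419. The log2 difference from vehicle was -1.28 with calcitriol and -0.78 with calcidiol for Col1a1, and -0.86 and -0.32 for Kdr. Their part in the ribosomal protein values was not tested.

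A ribosome carries 1 copy of nearly every ribosomal protein, so cells make these proteins in matched amounts, and their genes are among the most strongly transcribed in any growing cell. Their messages share a 5′ terminal oligopyrimidine (TOP) start, a cytosine followed by a run of C and T bases (in the RNA, C and U), through which the kinase mTOR and the RNA-binding protein Larp1 set how much of the message is translated. Much of their control is therefore exerted on translation and on protein stability, which an array of message levels does not read.

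The start sequences were read for the TOP pattern. RefSeq (build GRCm38.p6) had start windows for 63 of the 84 genes, 75 windows in all, running from 250 bases before the annotated start to 50 after it. On the gene strand, 13 of the 75 windows (17.3%) had a C at the annotated start followed by at least 4 bases that were C or T, against 2.51% of all 32851 windows and 0 of the 74 windows of mitochondrial ribosomal protein genes. A run of at least 8 C or T bases within 25 bases of the start was found in 45.3% of the family's windows, against 19.7% of all windows. Of the 13 starts with a C, 6 are given here as 30 bases each, beginning 10 bases before the start, with the pyrimidine run from the start base in capitals.
Rps6: gaagtcgggcCTCTTTTTCgtgacgcctcc
Rpl15: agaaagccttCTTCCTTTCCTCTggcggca
Rpl35: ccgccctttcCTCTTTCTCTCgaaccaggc
Rps10: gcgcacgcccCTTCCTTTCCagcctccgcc
Rps18: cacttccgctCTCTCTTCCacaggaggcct
Rpl28: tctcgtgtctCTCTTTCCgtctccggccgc
They lie at chr4:86857348-86857377 (minus strand), chr14:18270967-18270996 (minus strand), chr2:39005112-39005141 (minus strand), chr17:27635225-27635254 (minus strand), chr17:33955646-33955675 (minus strand) and chr7:4792955-4792984 (plus strand) of that build. The capital runs span 8 bases in Rpl28, 9 in Rps6 and Rps18, 10 in Rps10, 11 in Rpl35 and 13 in Rpl15. The 13 genes with such a start had a median log2 difference of -0.022 for calcitriol against vehicle and 0.085 for calcidiol against vehicle. The 46 other measured genes with a window had medians of 0.090 and 0.060. The ranges of both sets overlapped. For calcitriol they were -0.38 to 0.21 in the 13 genes and -0.59 to 0.48 in the 46. For calcidiol they were -0.15 to 0.93 in the 13 and -0.28 to 0.38 in the 46. The split rests on the annotated start base alone, so the 46 cannot be taken as genes that lack a TOP start.

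Of the 84 genes, 83 had an unflagged probe and 79 were well above background on all 3 arrays, 47 of the large and 32 of the small subunit. Rpl3l, the muscle form of Rpl3, had signals of 4.17 with calcitriol, 3.80 with calcidiol and 2.86 with vehicle. Rpl10l, the retrogene expressed in testis, had signals of 2.89 with calcitriol, 9.59 with calcidiol and 2.76 with vehicle, Rpl39l, a retrocopy best known from testis, 3.46 with calcitriol, 3.71 with calcidiol and 2.77 with vehicle, and Rps4l 8.42 with calcitriol, 4.32 with calcidiol and 2.92 with vehicle. These 4 stayed near background on all 3 arrays, whereas 77 of the 79 measured genes were among the brightest 10% of genes measured on 3 arrays (1638 genes). Rpl22l1, the second copy of Rpl22, had its only probe flagged, and with the flag disregarded its signals were 9905, 11411 and 9979 with calcitriol, calcidiol and vehicle. Signals of the measured small subunit genes ran from 8833 to 68624 with calcitriol, from 9440 to 66768 with calcidiol and from 8021 to 66043 with vehicle. Brightness also depends on the probe, so it does not rank the genes: Rpl37, a bright gene in most cells, had only 57.8, 42.9 and 48.4 on its single probe.

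The large subunit as a whole was close to vehicle with either compound. Levels are log2 signals relative to each array's 75th percentile, and a difference is the level on 1 array minus that on another. The median difference of the 47 measured large subunit genes was 0.053 for calcitriol against vehicle and 0.049 for calcidiol against vehicle, against -0.0045 and -0.0096 over all 16653 and 16646 genes measured. With median centring, which moved the median of all genes to 0.12 for calcitriol against vehicle and to -0.071 for calcidiol against vehicle, these medians became 0.18 and -0.012, so the direction for calcidiol turned. The middle 50% of the large subunit genes spanned -0.024 to 0.14 with calcitriol and -0.0020 to 0.091 with calcidiol. Both compounds were compared with the same vehicle array, so their values are given side by side and not as 2 independent readings.

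The small subunit was as close to vehicle. Its 32 measured genes had median differences of 0.058 for calcitriol and 0.086 for calcidiol, with the middle 50% at -0.055 to 0.15 and 0.028 to 0.12. Above 0 were 54 of the 79 genes for calcitriol against vehicle (49.3% of all genes were above 0) and 62 of 79 for calcidiol against vehicle (47.7% of all genes). These shares depend on the scaling: with median centring 69 and 42 of the 79 were above 0, and with cyclic loess, which removes trends with brightness, 43 and 58. Genes as bright as these also sat slightly above 0: the 1561 other genes of the brightest 10% had median differences of 0.023 with calcitriol and 0.018 with calcidiol.

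**Figure D1:**
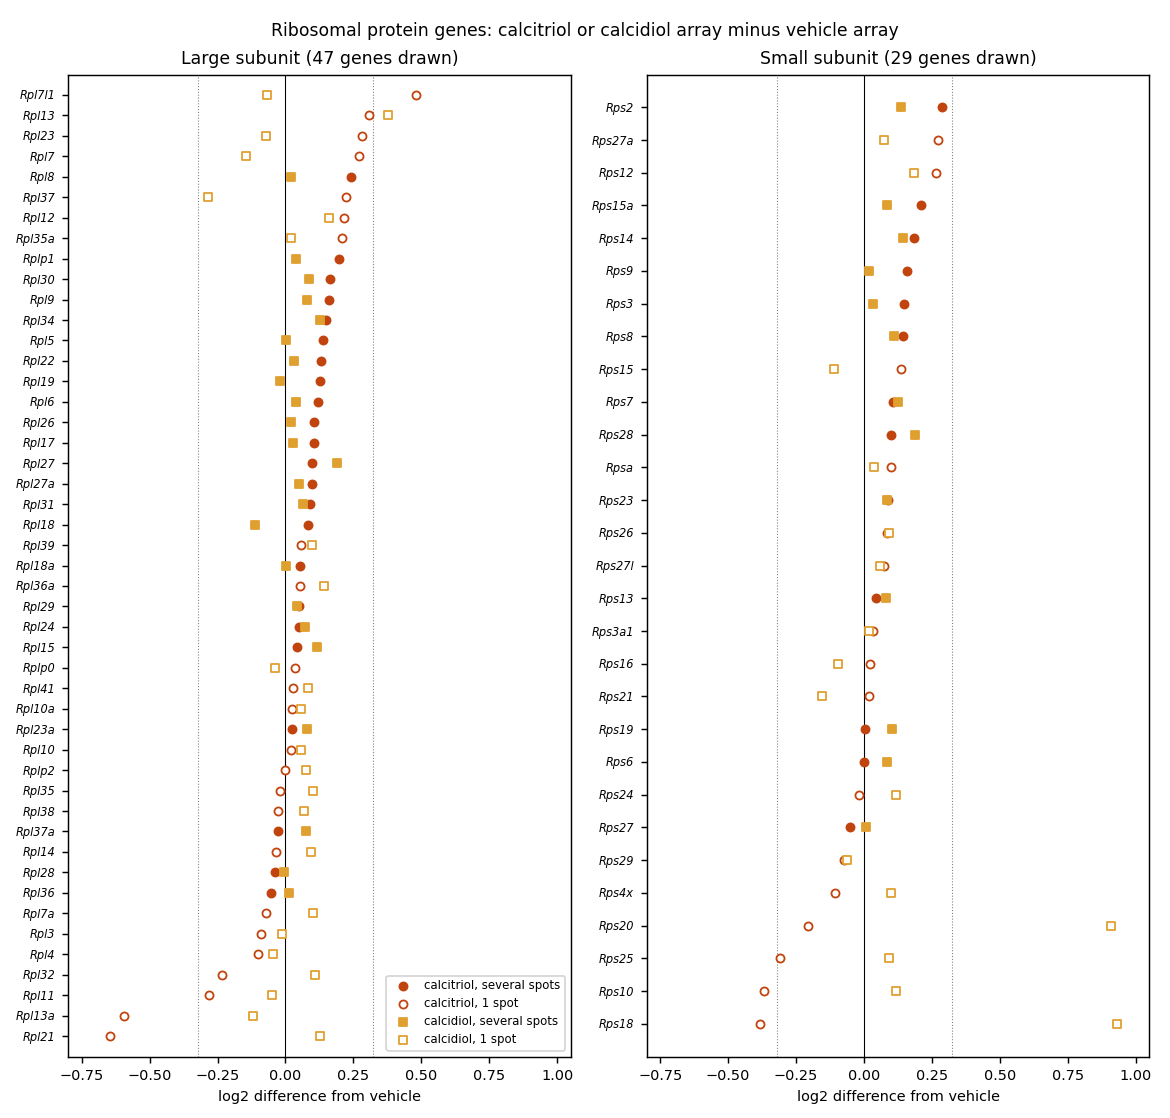
Log2 difference from vehicle (x axis) of measured ribosomal protein genes (rows, all but a few drawn), calcitriol as circles and calcidiol as squares, filled where the gene's probe kept several spots and open where it had 1; dotted lines mark a difference of 0.32 in either direction. The points beyond the dotted lines are open ones.

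Few single genes stood away from vehicle, taking a log2 difference of 0.32 as the smallest step counted. With calcitriol, 1 of the 79 was at least that much higher than with vehicle (10.7% of all genes) and 5 were at least 0.32 lower (15.7% of all genes). With calcidiol, 3 were at least 0.32 higher (8.09% of all genes) and 0 at least 0.32 lower (7.46% of all genes). With median centring the split was 13 higher and 3 lower with calcitriol and 2 higher and 1 lower with calcidiol. No ribosomal protein gene was 2-fold apart from vehicle. Among all genes the share 2-fold above vehicle was 0.961% with calcitriol and 0.853% with calcidiol, and the share 2-fold below it 1.63% and 0.144%. The scanner software gives a technical error of about 0.20 on the log2 scale for a difference between single spots. For 57 of the 79 genes with calcitriol and 75 with calcidiol, the difference was smaller than that. The error was not lowered for probes averaged over several spots, so for those genes it is larger than the error of the mean.

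The stalk of the large subunit, which recruits the elongation factors, is formed by Rplp0, the anchor, by its partners Rplp1 and Rplp2, and by Rpl12 at its base. Rplp0 had signals of 36229 with calcitriol, 36367 with calcidiol and 34561 with vehicle, Rplp1 35958 with calcitriol, 33962 with calcidiol and 30636 with vehicle, and Rplp2 44849.6 with calcitriol, 49947 with calcidiol and 43850.0 with vehicle. Rpl12 had 27755 with calcitriol, 28184 with calcidiol and 23338 with vehicle. Their differences from vehicle ran from -0.00079 (Rplp2) to 0.22 (Rpl12) with calcitriol and from -0.037 (Rplp0) to 0.16 (Rpl12) with calcidiol. Rpl12 read alike on its second bright probe, at 0.29 and 0.16, and those of Rplp1 did not: 2 probes gave 0.20 (10 spots) and 0.15 (1 spot) with calcitriol, and another of 1 spot gave -0.82.

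Rpl5 and Rpl11 form a particle with the 5S ribosomal RNA, which binds Mdm2 when ribosome assembly fails. Rpl5 had signals of 23388 with calcitriol, 22398 with calcidiol and 20694 with vehicle, a difference from vehicle of 0.14 with calcitriol and 0.0029 with calcidiol over 10 spots. Rpl11 had 30229 with calcitriol, 37437 with calcidiol and 35880.0 with vehicle on 1 spot, with differences of -0.28 and -0.050. With calcitriol the partners lay on opposite sides of vehicle, on probes printed unequally often.

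Around the exit of the tunnel through which the new protein leaves sit Rpl17, Rpl19, Rpl23a, Rpl26, Rpl31, Rpl35 and Rpl39, of which Rpl23a and Rpl35 help dock the signal recognition particle. With calcitriol their differences from vehicle ran from -0.022 (Rpl35) to 0.13 (Rpl19), and with calcidiol from -0.020 (Rpl19) to 0.10 (Rpl35). Rpl19 was printed on 10 spots and had 34007 with calcitriol, 32316 with calcidiol and 30426 with vehicle. Rpl35 had 1 spot, with 29628 with calcitriol, 34059.6 with calcidiol and 29389.8 with vehicle. Rpl17 (0.11 with calcitriol and 0.030 with calcidiol), Rpl26 (0.11 and 0.020) and Rpl31 (0.091 and 0.063) lay between them, as did Rpl23a (0.024 and 0.078) and Rpl39 (0.056 and 0.098). Rpl23a had a second probe of 1 spot in row 2 of the array, which read -0.91 with calcitriol and 0.32 with calcidiol where the 10 spots of its brightest probe read 0.024 and 0.078.

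The large subunit's extremes lay outside these groups. Rpl21 had signals of 11331 with calcitriol, 20394 with calcidiol and 17311 with vehicle, a difference of -0.64 ± 0.20 from vehicle with calcitriol (± is the scanner's technical error). Rpl13a, whose protein also takes part in silencing inflammatory messages, had 8597 with calcitriol, 12599 with calcidiol and 12669 with vehicle, a difference of -0.59 ± 0.20 on its only probe, a spot 6 rows from the array's edge. Both were low with calcitriol and near vehicle with calcidiol (0.13 and -0.12). Rpl21's other bright probe had 14544, 14679 and 12557, and read 0.18 and 0.11. At the high end with calcitriol were Rpl13 (0.31) and Rpl23 (0.28). Rpl13 was also the highest of the large subunit with calcidiol at 0.38, with signals of 38508 with calcitriol, 42564 with calcidiol and 30370.1 with vehicle, but its probe of 9 spots, which the annotation places on another chromosome, read 0.0061 and 0.0085. A dimmer probe read -0.55 and 0.84. At the ends with calcidiol were also Rpl27 (0.19, 8 spots), the dim Rpl37 (-0.28) and Rpl7 (-0.14).

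In the small subunit, Rps2 and Rps3 line the channel where the message enters. Rps2 had 21225 with calcitriol, 20175 with calcidiol and 17019.5 with vehicle over 7 spots, the highest difference of the small subunit with calcitriol at 0.29, and 0.14 with calcidiol. Its 7 spots had levels of 5.67 to 5.90 on the calcitriol array and 5.34 to 5.62 on the vehicle array, without overlap, and its other bright probe, which the annotation places elsewhere on the chromosome, read 0.34 with calcitriol and 0.012 with calcidiol. Rps3, also a DNA repair factor, had 27103 with calcitriol, 26373 with calcidiol and 23909 with vehicle and differences of 0.15 and 0.032. Spots of 1 array show the spread of printing and hybridisation, not of cultures.

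The beak of the small subunit holds Rps10, Rps12 and Rps27a, the last made as a fusion with ubiquitin. Rps27a had 55211 with calcitriol, 50744 with calcidiol and 44692 with vehicle and differences of 0.27 and 0.072. Rps12 had 30634 with calcitriol, 30571 with calcidiol and 24894 with vehicle, with 0.27 and 0.19. Rps10 had 36629.6 with calcitriol, 54107 with calcidiol and 46187 with vehicle, with -0.37 and 0.12. The first pair sat above vehicle with both compounds, and Rps10 below it with calcitriol on its brightest probe, a single spot in the outermost column. The probe of Rps10 with 10 spots read 0.12 and 0.046.

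Among the proteins at the message's exit are Rps14, Rps26 and Rps28. Rps14 had 44431 with calcitriol, 45045 with calcidiol and 37896 with vehicle, Rps26 33211 with calcitriol, 35232 with calcidiol and 30626 with vehicle, and Rps28 39709 with calcitriol, 44196 with calcidiol and 36087 with vehicle. Their differences from vehicle were 0.18, 0.084 and 0.10 with calcitriol and 0.14, 0.091 and 0.19 with calcidiol. At the low end of the small subunit with calcidiol were Rps21 (-0.15), Rps15 (-0.11) and Rps16 (-0.095).

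Rps18 and Rps20 were the only genes of the family at least 1.5-fold above vehicle with calcidiol. Rps18 had 23096 with calcitriol, 60666 with calcidiol and 29437 with vehicle, a difference of 0.93 ± 0.20 with calcidiol and -0.38 with calcitriol. Rps20 had 18317 with calcitriol, 41839 with calcidiol and 20653 with vehicle, a difference of 0.91 ± 0.20 and -0.21. Each of these readings is 1 spot in row 2 of the array. The other probes of both genes did not share the difference: for Rps18, probes of 8 and 6 spots read 0.038 and 0.064 with calcidiol and 0.18 and 0.24 with calcitriol, and for Rps20 a spot 43 rows or columns from the edge read 0.19 and -0.071. The sequences of these probes are shown with the positions that the array's annotation gives them (mm9, all on the minus strand). The probes were not aligned to transcripts, so whether those of 1 gene read the same message was not tested. The first 3 are the whole 60-base probes of Rps18 in order of brightness.
Rps18, 1 spot: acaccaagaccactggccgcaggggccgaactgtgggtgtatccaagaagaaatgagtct
Rps18, 8 spots: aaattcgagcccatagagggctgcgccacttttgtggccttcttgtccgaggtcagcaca
Rps18, 6 spots: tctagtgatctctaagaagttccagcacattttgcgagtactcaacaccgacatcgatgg
They lie at chr17:34088984-34089043, chr17:34089041-34089202 and chr17:34092060-34092119, and the positions of the first pair overlap at their ends. The 2 bright probes of Rps20 share 44 of their 60 bases, and the single-spot probes of Rps10 share 40, of which the first 30 are given.
Rps20, shared: gttgaagtcaccattgcagatgcctaagac
Rps10, shared: gtcagccacctcagtgaagttggagtttat
The Rps20 probes lie at chr4:3761620-3761679 (row 2) and chr4:3761615-3761674, and the Rps10 probes at chr17:27767387-27767446 (outermost column) and chr17:27767367-27767426. The Rps10 pair read -0.37 and -0.082 with calcitriol, and 0.12 and 0.29 with calcidiol.

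**Figure D2:**
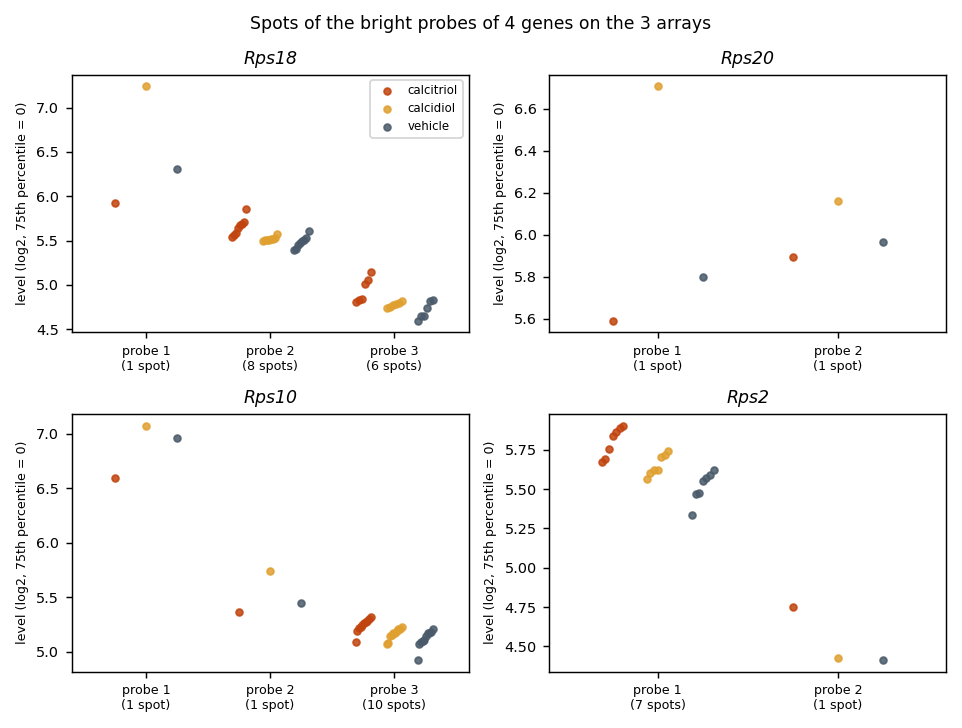
Level of each unflagged spot (log2 signal relative to the array's 75th percentile, y axis) on the calcitriol, calcidiol and vehicle arrays for the bright probes of 4 genes, in order of brightness; each point is 1 spot. Rps18 and Rps20 differ between arrays by more on their brightest probe, a single spot, than on their other bright probes, and the 7 spots of Rps2 on the calcitriol array all lie above those on the vehicle array.

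The spread of the differences went with how often a probe was printed. Of the 79 measured genes, 38 had a brightest probe with several unflagged spots, and 0 of these were 0.32 apart from vehicle with either compound: they ran from -0.24 to 0.29 with calcitriol (median 0.10) and from -0.11 to 0.19 with calcidiol (median 0.067). The 41 read from 1 spot ran from -0.64 to 0.48 and from -0.28 to 0.93, and held all 6 and all 3 genes at least 0.32 apart. The SD over genes was 0.097 and 0.063 for several spots and 0.25 and 0.22 for 1 spot. Over the 65 probes of the family with several spots, the median SD between spots was 0.12 with calcitriol, 0.046 with calcidiol and 0.091 with vehicle.

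Position on the array also moved with the levels. In rows 1 to 60, the family's replicate spots lay above their own probe's median by a median of 0.15 on the calcitriol array, 0.0091 on the calcidiol array and 0.098 on the vehicle array. Base composition differed as well: of 12 bright single-spot probes of the family at least 0.32 lower with calcitriol, 6 had at most 40% G and C, against 17 of the 69 within 0.32. The part of position and composition in the differences was not tested, and both were looked at after the values had been seen.

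For 53 genes a second probe within 16-fold of the brightest was available. The brightest probe and the median of the others had the same sign in 35 of 53 for calcitriol against vehicle and in 44 of 53 for calcidiol against vehicle. Their median gap was 0.13 and 0.069. Of the 4 of these genes whose brightest probe was 0.32 apart with calcitriol, 0 had a median of the other probes 0.32 apart the same way. Of 3 with calcidiol, 1 had (Rpl13). That median, 0.42, lies between 2 probes that disagree: 1 of 9 spots read 0.0085 and 1 of a single spot 0.84. Probes of 1 gene disagreed by over 1 on the log2 scale for Rplp1, Rps24 and Rps3a1 with calcitriol against vehicle, and between the compounds also for Rpl13, Rpl23a and Rps18. Rps24, whose splice forms differ at the end of the message, read -0.017 on its brightest probe and -1.33 on the next, a single spot 4 rows from the edge. Another bright probe of Rps24, also 1 spot, read 0.051. Which splice forms these probes read was not tested. Rps3a1 read 0.032 on its brightest probe, 0.074 over 9 spots of another and -0.99 on 1 spot.

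**Figure D3:**
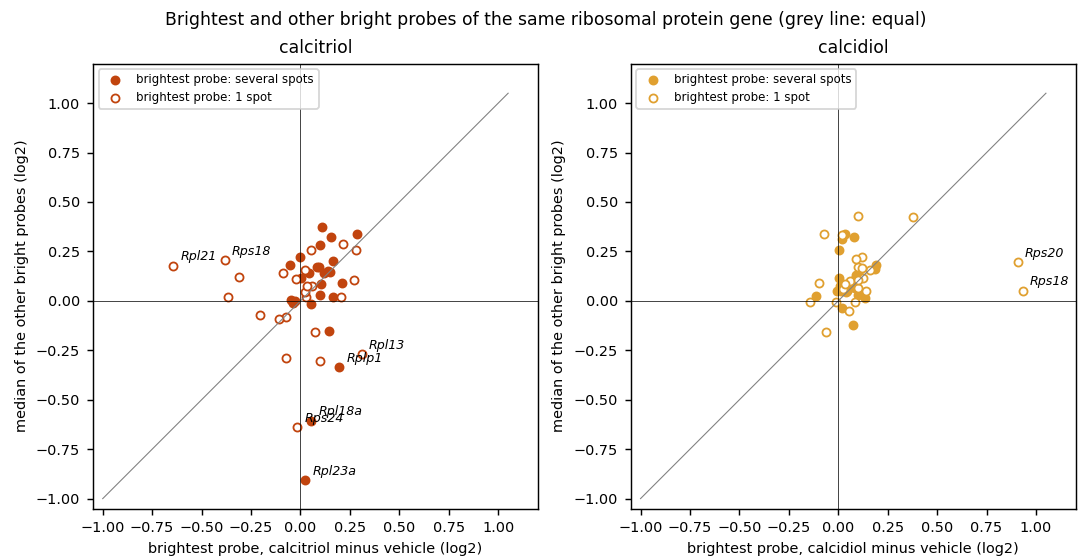
Log2 difference from vehicle on a gene's brightest probe (x axis) against the median of its other bright probes (y axis) for ribosomal protein genes with a second bright probe (all but a few drawn), calcitriol left and calcidiol right; open points are brightest probes of 1 spot. Rpl21 and Rps18 lie at -0.64 and -0.38 on the x axis of the calcitriol panel and above 0 on its y axis.

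Calcitriol differs from calcidiol by a 1α-hydroxyl group, and both were given at 1e-07 M for 24 h. Between these 2 arrays, the median difference was -0.023 for the large subunit and -0.0020 for the small subunit, against 0.0036 over all 16499 genes measured. It became 0.16 and 0.18 with median centring, which moved the median of all genes to 0.19. Above 0 were 39 of the 79 genes (50.7% of all genes). At least 0.32 higher with calcitriol than with calcidiol were 4 (9.7% of all genes) and at least 0.32 lower 9 (14.4% of all genes). With median centring the split was 15 higher and 4 lower. At least 2-fold lower were Rps18 (-1.32) and Rps20 (-1.11), against 1.41% of all genes, and 0 were 2-fold higher, against 0.467%.

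The lower end of this comparison held the single-spot readings already described: Rpl21 (-0.77) and Rpl13a (-0.47), and then Rpl32 (-0.34), also 1 spot, with 20746 with calcitriol, 27755 with calcidiol and 23829.9 with vehicle. The upper end held Rpl7l1 (0.55), Rpl37 (0.51), Rpl7 (0.42), Rps15 (0.25) and Rps27a (0.20). Rps18 ended at 0.14 when read from its probe with the most spots. Of 53 genes with other bright probes, 26 had the same sign on both readings, with a median gap of 0.22. With 1 array per compound and no test, these values do not show that the compounds acted alike or differently on any ribosomal protein gene.

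Some copies of ribosomal protein genes can exchange for their partners in some tissues. Of 6 copies or relatives with an unflagged probe, Rpl7l1 and Rps27l were measured. The 1 member at least 0.32 higher than vehicle with calcitriol was Rpl7l1, and with the copies and relatives left out 0 of 77 members were. Rpl7l1, a nucleolar relative of Rpl7, had 451 with calcitriol, 326 with calcidiol and 316 with vehicle and was the highest of the large subunit with calcitriol at 0.48 ± 0.20, with -0.067 with calcidiol. Its partner Rpl7 had 46344 with calcitriol, 36664 with calcidiol and 37511 with vehicle, with 0.27 and -0.14, so both of this pair stood above vehicle with calcitriol and below it with calcidiol, each on 1 spot. Rpl7's other bright probe read 0.10 and -0.0044. Rpl7l1's only probe, at chr17:46915373-46915432 (mm9, minus strand), is shown because no second probe checks it.
Rpl7l1: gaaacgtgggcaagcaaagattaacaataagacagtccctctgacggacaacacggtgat

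Rps27l, a p53 target, had 11808 with calcitriol, 12338 with calcidiol and 10977 with vehicle, and its partner Rps27 had 41847 with calcitriol, 45799 with calcidiol and 42198 with vehicle. Rps27l differed from vehicle by 0.072 with calcitriol and 0.058 with calcidiol, and Rps27 by -0.050 and 0.0072. The partners of the copies that were not measured were near vehicle: with calcitriol, Rpl3 read -0.088, Rpl10 0.020, Rps4x -0.11 and Rpl22 0.13. With calcidiol they read -0.013, 0.056, 0.10 and 0.033. Near-identical copies limit the naming of a signal in this family. For 6 genes the brightest probe also lists an accession of another gene (Rpl26, Rpl30, Rpl34, Rplp2, Rps26 and Rps27), and for Rps27 and Rps29 the annotation places the brightest probe on another chromosome than the gene's own.

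Other genes of ribosome production were read from lists fixed for this family. Among these were 20 other messages known or held to have a TOP start, such as the translation factors and Tpt1. Above 0 were 13 with calcitriol (49.3% of all genes) and 15 with calcidiol (47.7% of all genes), with medians of 0.056 and 0.077. With median centring, 20 and 12 of these messages were above 0. At their ends were Pabpc1, the poly(A)-binding protein (0.33, signals 28452 with calcitriol, 25756 with calcidiol and 22039 with vehicle), and the elongation factor gene Eef1a1 (-0.091) with calcitriol. With calcidiol they were Fau, which encodes a small subunit protein fused to a ubiquitin-like one (0.39, signals 55829.9 with calcitriol, 75207 with calcidiol and 53311 with vehicle), and the initiation factor gene Eif4b (-0.17). Fau and Rack1 encode proteins of the ribosome that the name rule does not take, and Rack1 read 0.27 and 0.25. Between the compounds, Fau (-0.35) and the splicing factor gene Hnrnpa1 (0.24) were the ends.

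Most of the genes that assemble ribosomes were higher with calcitriol than with vehicle. Of 33 ribosome biogenesis genes, 32 were above vehicle with calcitriol (49.3% of all genes) and 21 by at least 0.32 (10.7% of all genes). Their median was 0.40 against -0.0045 over all genes. Every gene of this list and of the lists that follow was read from 1 spot, whereas 38 of the 79 ribosomal protein genes had several. The median stayed between 0.34 and 0.53, and the count at 0.32 between 17 and 27, in the 12 settings in which the list was read. Gnl3, the nucleolar GTPase nucleostemin, had 828 with calcitriol, 600.1 with calcidiol and 470.5 with vehicle, the highest difference with calcitriol at 0.78. Tsr1, a maturation factor of the small subunit, had 682 with calcitriol, 542 with calcidiol and 408 with vehicle (0.71), and Fbl, the methyltransferase fibrillarin, 11519 with calcitriol, 9743 with calcidiol and 7391 with vehicle (0.61), both named for their size after the values were seen. Sbds, the release factor of the late large subunit, was lowest at -0.036.

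With calcidiol the biogenesis genes lay nearer to vehicle, with 22 of 33 above 0 (47.7% of all genes) and a median of 0.072. At least 0.32 higher were 3 (8.09% of all genes) and at least 0.32 lower 1 (7.46% of all genes). Dkc1, the pseudouridine synthase dyskerin, was highest (0.45) and Rrp12 lowest (-0.42). Calcitriol over calcidiol gave a median of 0.32, with 15 of 33 at least 0.32 higher (9.7% of all genes). Over the 12 settings this median ran from 0.21 to 0.50 and the count from 9 to 24. Rrp12, an export factor of pre-ribosomes, had 119 with calcitriol, 57.4 with calcidiol and 71.3 with vehicle and was over 2-fold apart between the compounds (1.13), at low signals. The median difference of other genes in bands of brightness of 10% each ran from -0.10 to 0.036 with calcitriol. No test of the difference between the lists was made.

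RNA polymerase I, which makes the large ribosomal RNA precursor, was read with its factors. Of these 13 genes, 6 were at least 0.32 higher with calcitriol (10.7% of all genes) and 2 with calcidiol (8.09% of all genes), with medians of 0.29 and 0.0018. Over the 12 settings the count with calcitriol ran from 3, with normexp and quantile normalisation, to 8, and the median with calcidiol from -0.060 to 0.10. Rrn3, the initiation factor that ties the polymerase to growth signals, had 1638 with calcitriol, 1451 with calcidiol and 788 with vehicle, with 1.02 and 0.77. It was the highest gene of the list with both compounds, over 2-fold with calcitriol, on 1 spot 4 rows or columns from the edge. Leaving out the outermost 6 rows and columns removes that spot. Of the 12 genes then measured, 5 were at least 0.32 higher with calcitriol and 1 with calcidiol. Polr1b, the second largest subunit, had 218 with calcitriol, 97.4 with calcidiol and 107.1 with vehicle, with 0.99 and -0.25 and 1.24 between the compounds. Polr1a, the largest subunit, was lowest with calcitriol at -0.10, and Taf1b was lowest between the compounds at -0.13.

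Of 8 host genes of small nucleolar RNAs, most of them with TOP starts, 7 were above vehicle with calcitriol (49.3% of all genes). With calcidiol 5 were (47.7% of all genes), and the medians with calcitriol and calcidiol were 0.21 and 0.15. Snhg1 was highest with both (0.65 and 0.27, signals 755 with calcitriol, 613 with calcidiol and 471 with vehicle), and Zfas1 lowest with both (-0.038 and -0.072). Snhg3 was lowest between the compounds (-0.047). The 77 mitochondrial ribosomal protein genes, which serve a separate ribosome, had medians of 0.14 and 0.042, with 8 at least 0.32 higher with calcitriol (10.7% of all genes) and 1 with calcidiol (8.09% of all genes). The first share is near that of all genes, and the count ran from 6 to 24 over the 12 settings, the highest with median centring. Above 0 were 60 of the 77 with calcitriol (49.3% of all genes) and 47 with calcidiol (47.7% of all genes). With calcitriol 0 were at least 0.32 lower (15.7% of all genes). The count above 0 with calcitriol was 72 with median centring and 55 with cyclic loess. Mrpl19 was highest with both compounds (0.74 and 0.38), Mrps11 lowest with calcitriol (-0.19) and Mrpl35 with calcidiol (-0.36). Between the compounds the ends were Mrpl16 (0.44) and Mrpl18 (-0.27).

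Among 20 regulators of ribosome production, the transcription factor gene Myc and the mTOR inhibitor gene Deptor marked the ends with both compounds. Myc had 662 with calcitriol, 546 with calcidiol and 356 with vehicle, with 0.86 and 0.50. Deptor had 765 with calcitriol, 948 with calcidiol and 1366 with vehicle, with -0.87 and -0.64. Between the compounds, Mtor (0.47) and Sesn2, a stress-induced restraint of the mTOR complex (-0.62), were the ends. The genes around mTOR did not move as 1 set. Sesn1 read 0.65 for calcitriol against vehicle and 0.46 between the compounds, and Rheb -0.28 and -0.47, both named after the values were seen. Regulators as a list had medians of 0.080 and 0.043, and Larp1 read 0.29 and 0.17. Over the 12 settings the list's median ran from -0.039 to 0.20 with calcitriol and from -0.018 to 0.052 with calcidiol, so neither direction held throughout.

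**Figure D4:**
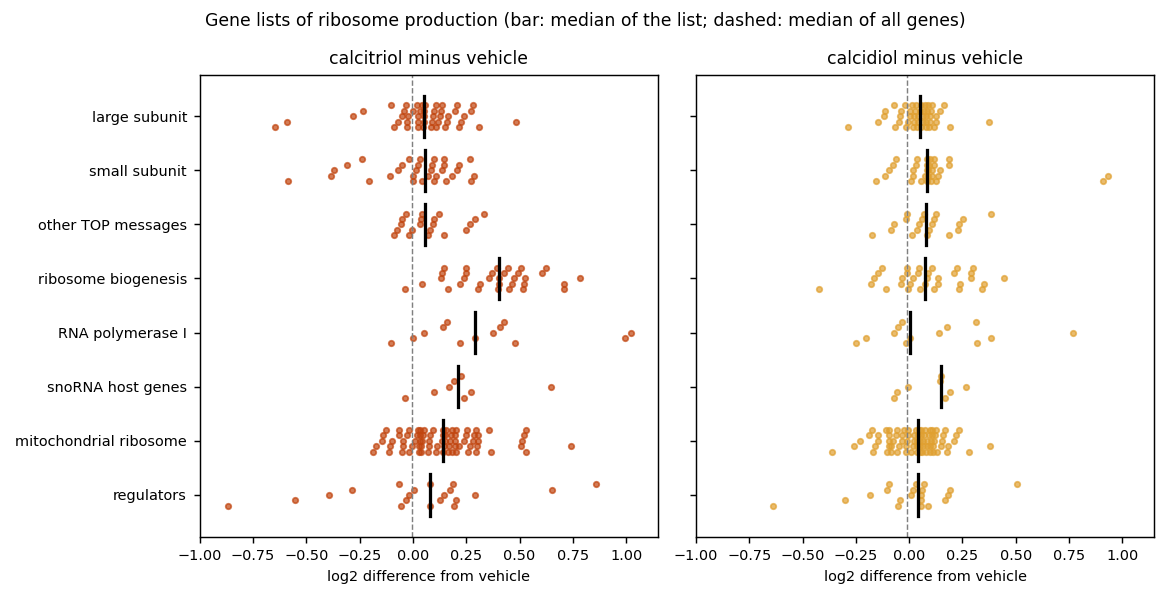
Log2 difference from vehicle (x axis) of each measured gene of 8 lists (rows), calcitriol left and calcidiol right; black bars are list medians and the dashed line is the median of all genes. The subunit lists have medians of 0.053 and 0.058 with calcitriol, and the ribosome biogenesis list, read from 1 spot per gene, 0.40.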

How the data were processed

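RNA of 3 samples, 1 per group, was hybridised in Cy3 to one-colour Agilent arrays on 1 slide, scanned together. The deposited intensity values are spot signals that Feature Extraction had corrected for background and detrended within each array, per the file headers, which name version 10.7.1.1 and mm9 (9.5.1.1 in the submitters' processing notes). Sequencing depth does not apply, and 1 array per group limits the precision. The deposited value table holds linear intensities with nearly equal sorted values in its 3 columns, as after quantile normalisation; the sources used here name no method for it, and it was used as an alternative.

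Levels are log2 processed signals minus each array's 75th percentile over non-control spots. Flagged spots were left out and spots of a probe averaged. A gene was compared where well above background on both arrays. Members and lists were chosen with earlier results of these data known. The text names the 3 highest and lowest members per subunit and comparison, members at least 1.5-fold apart, members not measured, copies and their partners, role lists, members whose probes disagree, and the ends of other lists. Python 3.11.15, pandas 2.3.3, R 4.3.3 and limma 3.58.1 were used. Counting was tested on simulated data. Promoter windows came from RefSeq. A few genes that the rule names are not reported here.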

Additional observations from a re-analysis of the deposited data

How the results depend on the processing

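Scaling, probe choice, flags, edge spots, dim-probe filters, copies and the deposited value table were varied one at a time, background correction was varied only together with quantile normalisation, and 2 alternatives on spot number were added after seeing the data. A difference or median counted as close within the spread between spots (0.15 for calcitriol against vehicle, 0.10 for calcidiol against vehicle, 0.13 between them), and a count within 1.5 times. Of the family's medians and counts under these alternatives, 105 stayed close to the reported value and 12 moved. These margins exceed the subunit medians against vehicle, 0.049 to 0.086, so a median could change sign and still count as close. With median centring the large subunit median for calcidiol against vehicle went from 0.049 to -0.012. The tally therefore does not show that the direction of these medians held. Of single genes' differences, 201 stayed close, 25 moved and 5 changed sign.

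With median centring, 16 members were at least 0.32 apart with calcitriol from vehicle, and the medians between calcitriol and calcidiol were 0.16 (large subunit) and 0.18 (small subunit), following the shift of all genes. The count with calcidiol was 5 with the mean over probes, 5 with flagged spots kept and 5 with no filter on dim probes. Without the outermost 6 rows and columns it was 1, and with calcitriol 3. Restricted to members with several spots, the counts were 0 with calcitriol, 0 with calcidiol and 1 between them. From the probe with the most spots, the calcidiol count was 1.

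Rps18 changed sign. For calcitriol against vehicle it read 0.0098 with the mean over probes, 0.17 without the edge and 0.18 from the probe with the most spots, and against calcidiol 0.11 without the edge and 0.14 from the probe with the most spots. The cause was not tested.

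No paired analysis was possible because each group had 1 array. Leaving out a replicate was not possible for the same reason, and differences between cultures and between arrays cannot be told apart.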
